A study of Homo sapiens with 4 samples.

Results

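The ETS factors described here are 10 human transcription factor genes: ETV1, ETV4, ETV5, ERG, ELK4, SPDEF, ELF3, EHF, ETS2 and FLI1. They were taken by symbol from the RefSeq transcript tables of the series, where they hold 35 of 41351 transcript rows and are 10 of 22985 genes with a symbol. Total RNA without ribosomal RNA was sequenced from LNCaP, an androgen-dependent line from a lymph node metastasis labelled Primary PC, and from C4-2, its castration-resistant subline labelled CRPC, with 2 libraries for each line. Both lines grew in medium with charcoal-stripped serum, from which steroids are depleted, and the labels name no other treatment. The labels do not tell separate cultures from repeat preparations, so a p-value here weighs a difference against a spread that may be technical. The names under which the data were deposited are those of the other line, so the text follows the sample titles and speaks of libraries under the LNCaP or the C4-2 label. All directions would turn round if the deposited names were right.

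ETS proteins share a DNA-binding domain that reads the core letters GGAA, and the letters around the core and partner proteins set which member binds where. In prostate cancer, ERG, ETV1 and ETV4 are known for rearrangements that place them under the control of androgen-responsive genes such as TMPRSS2. SPDEF, EHF and ELF3 form an epithelial branch that is expressed in glands, whereas ERG and FLI1 are normally factors of endothelium and blood. LNCaP is known as a line in which a rearrangement places ETV1 beside MIPOL1 and FOXA1 on chromosome 14.

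Sense tags of named genes, the counts on which all results rest, numbered 58925680 and 70459588 for LNCaP and 163126630 and 119080520 for C4-2. As a share of the library total implied by the deposited RPKM, this was 31.0% and 35.7% for LNCaP but 67.7% and 69.4% for C4-2. Of 8 luminal prostate markers 6 were called higher and 2 lower, where 40.2% and 39.7% of all genes tested were. HOXB13, FOXA1 and KRT18 were in every library at 165 CPM or more (CPM, tags of a gene per 1000000 sense tags, after scaling by the trimmed mean of M-values, TMM). Basal markers summed to at most 0.203 CPM. The 2 lower luminal markers were KLK2, with a mean of 256 CPM under the LNCaP label but 18.7 under the other, and KLK3, the prostate-specific antigen gene, which had a mean of 545 CPM under the LNCaP label but 6.18 under the other (log2 fold change -6.46 ± 0.055, SE). Of 4 neuroendocrine markers, ENO2 was called higher (1.84 ± 0.069), SYP (-0.25) and NCAM1 were not called and CHGA was not tested. ENO2 made up most of the list's sum, with 6.96 CPM and then 24.9. Differences are C4-2 over LNCaP as labelled, tested with edgeR's quasi-likelihood test over 15975 genes and called at a Benjamini-Hochberg adjusted p under 0.05.

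The 250 bases before the start of the chosen transcript are shown for ETV1, a near-silent member, and SPDEF, an abundant member that differed between the lines, because the family's own GGAA core can be read in them. They were read from the GRCh37 genome, the build of the deposited coordinates (hg19), 5′ to 3′ on the gene's strand, with capitals for each GGAA or its reverse complement TTCC. The SPDEF window is chr6:34524111-34524360 on the minus strand and the ETV1 window chr7:14029643-14029892 on the minus strand, which lies inside the span of ETV1 transcripts that start farther out.
SPDEF: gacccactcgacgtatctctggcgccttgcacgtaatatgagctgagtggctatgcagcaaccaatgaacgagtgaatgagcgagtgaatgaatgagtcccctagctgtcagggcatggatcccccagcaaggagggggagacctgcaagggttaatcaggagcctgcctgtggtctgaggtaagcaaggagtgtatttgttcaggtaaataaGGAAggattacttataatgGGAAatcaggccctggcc
ETV1: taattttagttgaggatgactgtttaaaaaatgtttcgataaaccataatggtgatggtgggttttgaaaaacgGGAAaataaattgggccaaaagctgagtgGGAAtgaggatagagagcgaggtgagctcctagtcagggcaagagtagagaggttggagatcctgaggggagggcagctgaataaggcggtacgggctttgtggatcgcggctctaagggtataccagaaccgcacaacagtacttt
SPDEF and ETV1 held 2 cores each. Across the same window of all 15975 tested genes the median was 3 cores, and 91.4% held at least 1, so the count sets neither apart. The longer form CCGGAAG, which 11.4% of windows hold on either strand, was in neither window. Their G and C content was 51.6% for SPDEF and 46.0% for ETV1, against a median of 62.8%. These matches describe letters and not binding.

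EHF, an epithelial ETS factor of glandular tissue, dominated the family. It had 647 and 605 CPM under the LNCaP label and 647 and 650 CPM under the C4-2 label, so the groups overlapped. The log2 fold change was 0.05 ± 0.041 (SE), with an adjusted p of 0.274 (edgeR). The call depended on the setting. Without LNCaP replicate 1 the value was 0.11 (adjusted p = 0.00873), without a filter on low counts 0.09 (adjusted p = 0.0375), and with the library totals as scaling 1.06 (adjusted p = 5.14e-15). Per kilobase of exon EHF stood at 115 ± 5.52 CPM (SD, n = 2) under the LNCaP label and 119 ± 0.410 under the C4-2 label, which ranked it 710th and 676th among the genes tested.

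Measured per kilobase, EHF supplied between 49.4% and 52.6% of the summed level of all 28 ETS genes with a row, in each of the 4 libraries. SPDEF, the prostate-derived ETS factor, held 7.51% and 8.86% of that sum under the LNCaP label and 14.6% and 13.5% under the C4-2 label. ELF5, an epithelial relative outside the 10 members, went the other way, from 7.34% and 6.76% to 1.69% and 1.58%.

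**Figure D1:**
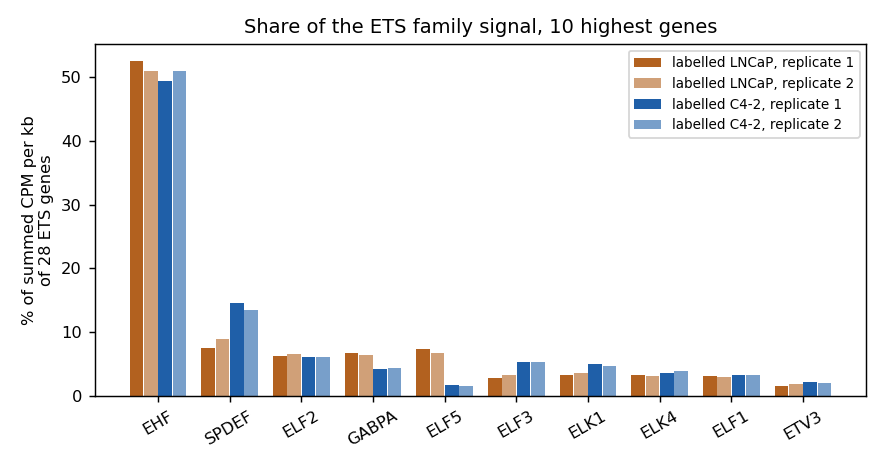
Bars give each gene's percentage of the summed CPM per kilobase of 28 ETS genes, for the 10 genes with the highest mean, in each library (orange, labelled LNCaP; blue, labelled C4-2; the paler bar is replicate 2). EHF lies between 49.4% and 52.6% in all 4 libraries, and SPDEF is higher and ELF5 lower under the C4-2 label.

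SPDEF and ELF3 were both higher under the C4-2 label. SPDEF (hg19 chromosome 6, 34505579 to 34524110, minus strand) had 32.4 and 36.9 CPM under the LNCaP label and 67.0 and 60.7 under the C4-2 label. Every library labelled C4-2 lay above every library labelled LNCaP. The log2 fold change was 0.88 ± 0.076 (SE, adjusted p = 1.24e-05, edgeR), a 1.84-fold difference. In bulk RNA a change in the number of expressing cells and a change in RNA per cell cannot be told apart. ELF3, an epithelial factor of surface and glandular linings (hg19 chromosome 1, 201979690 to 201986315, plus strand), had 20.0 and 22.6 CPM against 41.5 and 39.9. Its groups did not overlap either, and its log2 fold change was 0.93 ± 0.069 (adjusted p = 5.13e-06), a 1.91-fold difference. Both isoform rows of SPDEF and both of ELF3 had log2 ratios between 0.88 and 0.94, and the rows of a gene share most of their tags. In every library the ELF3 row not chosen held between 99.1% and 99.8% of the tags of the chosen one.

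ELK4, a partner of serum response factor, was also higher, but by little. It had 82.2 and 76.1 CPM under the LNCaP label and 95.8 and 100 CPM under the C4-2 label, without overlap, at a log2 fold change of 0.31 ± 0.05 (adjusted p = 0.000599, edgeR). Next to it, at 25.0 kb, lies SLC45A3, a prostate transporter gene that is transcribed towards ELK4 and is known to form joined transcripts with it. SLC45A3 had 13.1 ± 0.141 CPM (SD, n = 2) under the LNCaP label and 124 ± 5.61 under the C4-2 label, a log2 fold change of 3.24 ± 0.054 (adjusted p = 3.98e-09). ELK4's short isoform, whose row ends before the long 3′ part, held 14.7% and 17.8% of the tags of the long one under the LNCaP label and 16.1% and 15.4% under the C4-2 label, ranges that overlap.

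ETS2, a factor that responds to growth signals, was lower in the C4-2 libraries with TMM scaling. It had 7.92 and 7.90 CPM under the LNCaP label against 6.21 and 6.17, and the groups did not overlap. Its log2 fold change was -0.35 ± 0.083 (SE, adjusted p = 0.00436, edgeR), and with the library totals as scaling it turned to 0.65 (adjusted p = 8.91e-06). The direction of ETS2 thus holds relative to the typical gene only. That scaling moved the median log2 fold change of all genes from -0.011 to 1.005.

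**Figure D2:**
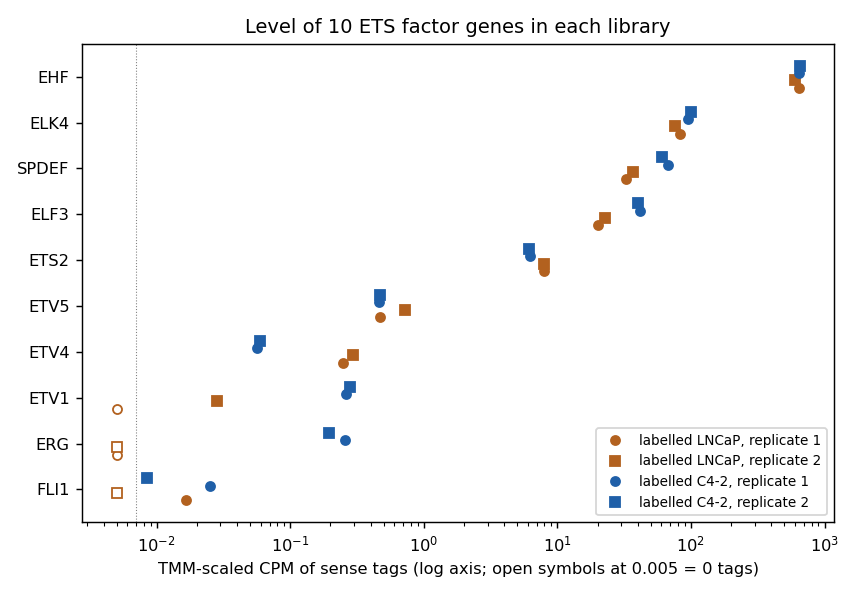
Points give the TMM-scaled CPM of each member in each library on a log axis (orange, labelled LNCaP; blue, labelled C4-2; circles, replicate 1; squares, replicate 2; open symbols, 0 tags). EHF lies between 605 and 650 CPM, 4 further members between 6.17 and 100 CPM, and ETV5, ETV4, ETV1, ERG and FLI1 at 0.720 CPM or less in all libraries.

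ETV1, the member for which LNCaP is known, was close to silent in all 4 libraries. Its chosen row (hg19 chromosome 7, 13930856 to 14029642, minus strand) had 0 and 2 tags under the LNCaP label and 42 and 33 under the C4-2 label. These are 0 and 0.0283 CPM against 0.261 and 0.280 CPM, and each of its 7 isoform rows gave the same picture with 0 to 2 tags in the former and 31 to 42 in the latter. The ratio of tags was 17.6, with a 95% counting interval of 4.71 to 148 that covers counting error only. The fitted log2 fold change was 4.04 ± 0.71 (SE, adjusted p = 0.000948, edgeR). It stood at 3.21 without LNCaP replicate 1 and at 7.94 without LNCaP replicate 2, where no tag is left on the LNCaP side. Per kilobase ETV1 ranked 15936th of 15975 genes tested under the LNCaP label and 15058th under the C4-2 label. The abundance known for ETV1 in LNCaP was therefore not seen under either label, and the identity of the cultures was not tested.

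The genes beside ETV1 in its known rearranged place stood far above ETV1 in level. Per kilobase MIPOL1 ranked 6694th of the genes tested under the LNCaP label and 5918th under the C4-2 label, and FOXA1 1622nd and 1504th. MIPOL1 had 52.6 ± 0.494 CPM (SD, n = 2) under the LNCaP label and 72.5 ± 2.79 under the C4-2 label (log2 fold change 0.46 ± 0.048, SE). FOXA1, a pioneer factor of prostate epithelium, had 172 ± 9.69 against 199 ± 0.343 (0.21 ± 0.05), a call that ended with the stricter filter (adjusted p = 0.0777). At its normal place on chromosome 7, the lipid enzyme gene AGMO, 1210 kb away, was lower at -1.15 ± 0.37 (SE). AGMO lost its call without C4-2 replicate 1 (-0.64) and stood at -1.79 without C4-2 replicate 2. With the library totals as scaling it stood at -0.14 and was not called (adjusted p = 0.674, edgeR).

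ERG, the ETS gene most often rearranged in prostate cancer, had 0 tags in each LNCaP library and 41 and 23 tags under the C4-2 label (hg19 chromosome 21, 39751950 to 40032591, minus strand). Its level in the latter was 0.255 and 0.195 CPM. Set against a floor of 3 tags over both LNCaP libraries this is 10.02-fold higher. The lower 95% counting limit of the ratio was 7.92, which covers counting error only. All 7 isoform rows had 0 tags on the LNCaP side. TMPRSS2, the usual fusion partner of ERG, had 93.6 ± 4.54 CPM (SD, n = 2) under the LNCaP label and 142 ± 7.42 under the C4-2 label. Both ETV1 and ERG passed the filter on low counts through the C4-2 libraries alone, so that they had to differ once tested.

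FLI1, the near relative of ERG, had 1 and 0 tags under the LNCaP label and 4 and 1 under the C4-2 label, and was the member that did not pass the filter. The ratio was 2.35 with a counting interval of 0.263 to 111, so a difference was not detectable at this depth. Of 8 endothelial markers, CLDN5 and TIE1 had 0 tags in every library and CDH5 had 2 tags, both in C4-2 replicate 1. The list summed to 23.2 and 24.9 CPM under the LNCaP label and 39.7 and 35.4 under the C4-2 label, of which EGFL7 alone had 19.5 ± 1.48 and 34.0 ± 2.91 (SD, n = 2). Of the 3 tested, EGFL7 was called higher and VWF and PECAM1 lower, both of which lost the call by DESeq2 (adjusted p of 0.13 and 0.135). Both also lost it without a filter on low counts, with transcripts summed and with both strands. The same held without LNCaP replicate 1 or without either C4-2 library. With the library totals PECAM1 was not called and VWF turned to 0.71. PECAM1 had 0.316 and 0.127 CPM under the LNCaP label against 0.0809 and 0.0763. It passed the filter on low counts through the LNCaP libraries alone, so its direction was fixed once tested. Of 8 blood cell markers, CD3E had 0 tags in every library and the list summed to between 2.89 and 4.76 CPM. The part of other cell types in the ERG and FLI1 tags was not tested.

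ETV4 and ETV5, which with ETV1 make up the PEA3 group, were scarce under both labels. ETV4 had 15 and 21 tags under the LNCaP label against 9 and 7 in the deeper C4-2 libraries, that is 0.250 and 0.297 CPM against 0.0560 and 0.0593. The fitted log2 fold change was -2.23 ± 0.42 (SE, adjusted p = 0.00143, edgeR), but ETV4 passed the filter on low counts through the LNCaP libraries alone, so that it had to differ once tested. On the opposite strand of the same exons lay 14 and 16 tags, then 25 and 18, more than the sense tags under the C4-2 label, and with both strands summed the value was -1.21 (adjusted p = 0.0048). What share of the ETV4 tags stems from its mRNA is uncertain. ETV5 had 28 and 51 tags against 74 and 55, at 0.466 and 0.720 CPM against 0.461 and 0.466. Its groups overlapped, and its log2 fold change of -0.37 ± 0.28 was not called (adjusted p = 0.25). With the library totals it turned to 0.62 (adjusted p = 0.058).

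By count, 5 of the 9 members tested were called higher (ETV1, ERG, ELK4, SPDEF and ELF3), where 40.2% of all genes tested were. ETV4 and ETS2 were called lower, where 39.7% of all genes were, and EHF and ETV5 were not called. With 80.0% of all genes called in either direction, 7 of 9 is near the background and is no result about the members. Called and at least 2-fold apart were ETV1, ERG and ETV4, where 29.8% of all genes were, and each of these had passed the filter through the line where it is higher. The range of one line lay clear of the other for 7 of the 9, against 89.9% of all genes. Their median log2 fold change was 0.31, against -0.011 over all genes tested. With the library totals as scaling 7 members were higher and ETV4 alone lower, where 73.1% of all genes were higher, 10.5% lower and 83.6% called in all.

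In order of level per kilobase, the LNCaP libraries ran EHF, SPDEF, ELK4, ELF3, ETS2, ETV5, ETV4, ETV1 and ERG. There, ELK4 and ELF3 overlapped (7.10 ± 0.388 and 6.57 ± 0.575 CPM per kilobase, SD, n = 2), as did ETV5 with ETV4 and ETV1 with ERG. In the C4-2 libraries, ELF3 stood above ELK4 (12.5 ± 0.337 and 8.79 ± 0.277) without overlap, and ERG and ETV1 (0.0437 ± 0.00826 and 0.0394 ± 0.00189) stood above ETV4 (0.0238 ± 0.000969). FLI1, which was not tested, had 0.00180 ± 0.00255 and then 0.00362 ± 0.00252 CPM per kilobase.

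The 18 ETS genes outside the members gave the family context. Of 17 tested, 5 were higher and 7 lower, where 40.2% and 39.7% of all genes tested were. With 80.0% of all genes called in either direction, these counts are no result about the family. The median log2 fold change was -0.01, against -0.011 over all genes, and SPI1, a factor of blood cells, had too few tags. The highest were ERF, a repressor of the family, at 0.64 ± 0.10 (SE), ELK1, a second partner of serum response factor, at 0.58 ± 0.066, and ELK3 at 0.41 ± 0.12. The last lost its call by DESeq2 (adjusted p = 0.0702) and without C4-2 replicate 1 (adjusted p = 0.0789). ETV3 was also higher (0.38), with its call lost when transcripts were summed (adjusted p = 0.0574). ELF1 was higher too (0.21), with its call lost under the stricter filter (adjusted p = 0.18) and without LNCaP replicate 2 (adjusted p = 0.0834). The lowest were ETV7 at -2.80 ± 0.45 and SPIC at -2.64 ± 0.45, both at 0.599 CPM or less in every library and past the filter through the LNCaP libraries alone, so that they had to differ, and ELF5 at -2.01 ± 0.078 (adjusted p = 1.68e-07, edgeR). ELF5 is a factor of glandular progenitors and had 36.3 ± 3.04 CPM (SD, n = 2) under the LNCaP label against 8.97 ± 0.583. ETV2 (-1.36), SPIB (-1.08), GABPA (-0.53) and ETV6 (-0.45) were lower, and with the library totals GABPA and ETV6 turned to 0.48 and 0.56 while ETV2 and SPIB lost their calls. Under that scaling 12 of the 17 were higher and 3 lower, where 73.1% and 10.5% of all genes were.

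**Figure D3:**
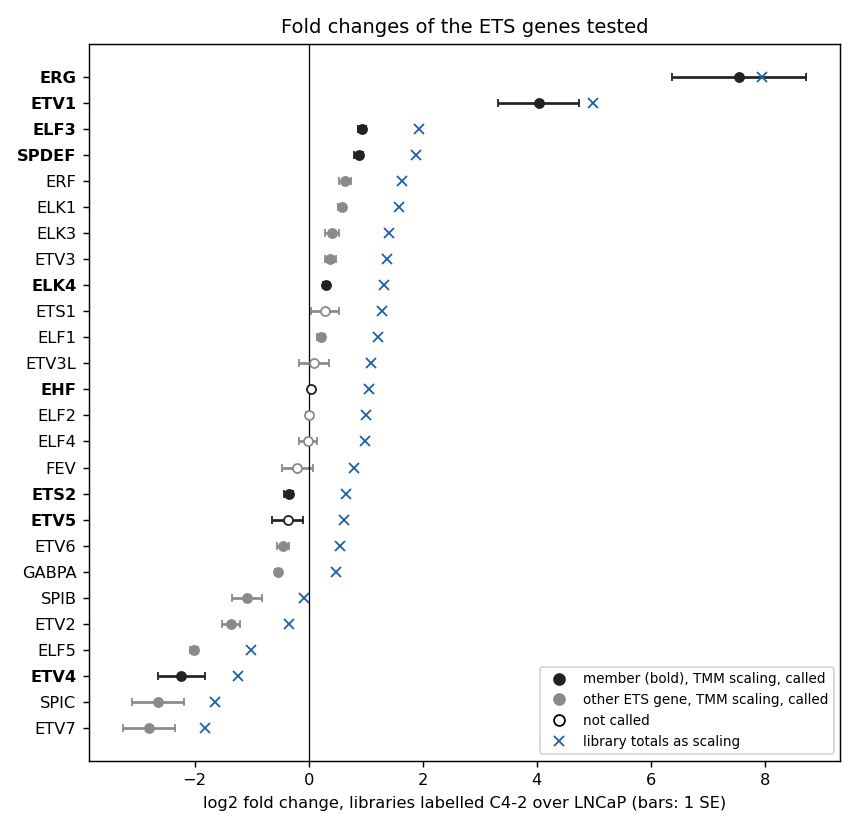
Points give the log2 fold change of libraries labelled C4-2 over LNCaP with 1 SE for the 26 ETS genes tested (black and bold names, members; grey, others; open, not called), and crosses give the same with library totals as scaling. ERG and ETV1 lie highest, with few or no tags on the LNCaP side so that their fitted values depend on the prior count, and crosses lie to the right throughout.

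Among the members, EHF, ERG, ETS2 and FLI1 each have another ETS gene as the nearest tested or member gene on one side. EHF and ELF5, 107 kb apart on chromosome 11, stood at 0.05 (not called) and -2.01. ERG and ETS2, 145 kb apart on chromosome 21, differed in that ERG was higher and ETS2 was lower at -0.35 with TMM scaling, whereas with the library totals both were higher (ETS2 at 0.65). FLI1 and ETS1, 172 kb apart on chromosome 11, were near 0 tags and at 0.29 ± 0.24 (SE, adjusted p = 0.298, edgeR), the latter called at 1.28 with the library totals. Of the other nearest tested genes, SPDEF lay between PACSIN1 at -0.33, which lost its call by DESeq2 (adjusted p = 0.0501), without LNCaP replicate 1 (-0.22) or without either C4-2 library and turned to 0.68 with the library totals, and ILRUN at 0.72 ± 0.045. ELF3 lay between the peptidase gene RNPEP at 1.51 ± 0.052 and GPR37L1 at -1.36 ± 0.26, a call lost with the library totals (adjusted p = 0.301). ETV4 lay between DHX8 at 0.66 ± 0.046 and DUSP3 at 0.19. The call of DUSP3 was lost without C4-2 replicate 1 (0.15) and under the stricter filter (0.08, adjusted p = 0.116, edgeR). ETV5 lay between TRA2B at 0.54 ± 0.043 and CRYGS at -2.25 ± 0.33. ELK4 lay between SLC60A1 at -0.88, which turned to 0.12 with the library totals, and SLC45A3 at 3.24.

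**Figure D4:**
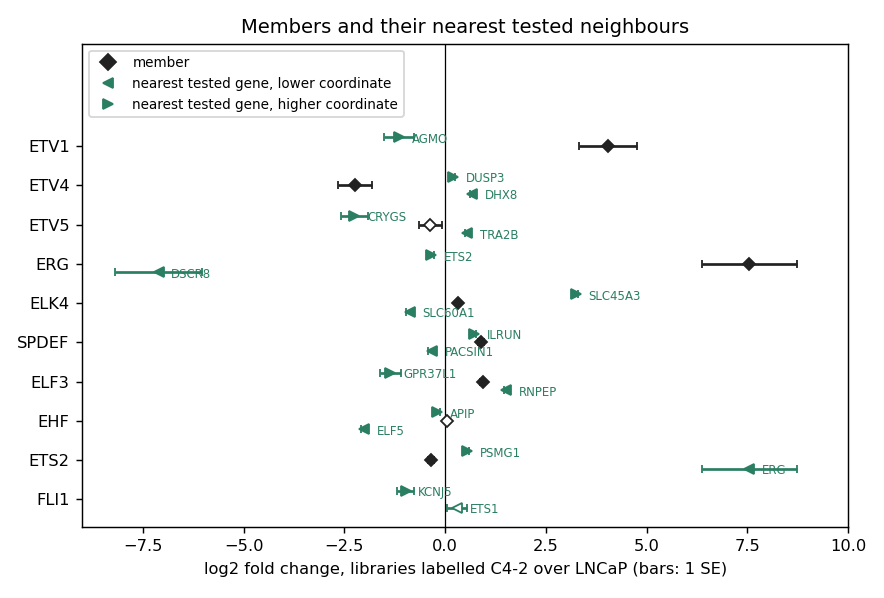
Diamonds give the log2 fold change of each member tested and triangles that of the nearest tested genes at lower and at higher coordinates, where reported, with 1 SE (open, not called). Neighbours lie on both sides of 0, as beside ELF3, where RNPEP stands at 1.51 and GPR37L1 at -1.36; the values of ERG and DSCR8 rest on a group with 0 tags and are no measure of size.

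Genes that act on PEA3-group factors include repressors, degraders and activators. CIC and its partners ATXN1 and ATXN1L repress PEA3-group genes, COP1 and DET1 mark the proteins for breakdown, and RAS and MAP kinases activate them. Of 16 genes, 11 were higher and 4 lower (median 0.42), where 40.2% and 39.7% of all genes were. With the library totals 14 were higher and 1 lower, where 73.1% and 10.5% of all genes were. The kinase gene MAP2K1 stood at 1.15 ± 0.041 (SE) and HRAS at 1.17 ± 0.057, whereas ATXN1 stood at -2.15 ± 0.075, with 33.0 ± 1.40 CPM (SD, n = 2) under the LNCaP label and 7.42 ± 0.616 under the C4-2 label. Of 15 tested genes among 18 that report on MAP kinase output, 8 were higher and 3 lower (median 0.57), or 12 and 2 with the library totals. These counts stand against the same shares of all genes. The cyclin gene CCND1 was at 1.12 ± 0.042 and MYC at 0.89 ± 0.049, and PHLDA1 was at -3.23 ± 0.15.

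Genes known as the 5′ side of ETS fusions were higher for 10 of 13 and lower for 3 (median 0.43), where 40.2% and 39.7% of all genes were. With the library totals 11 were higher and 2 lower, where 73.1% and 10.5% of all genes were. Besides SLC45A3 and TMPRSS2, KLK2 stood at -3.78 ± 0.054 (SE) and the stress gene HERPUD1 at -1.46 ± 0.039. Invasion genes tied to PEA3-group factors and ERG passed the filter in 10 of 18 cases. Of these 5 were higher and 5 lower (median 0.55), with the filament gene VIM at 2.79 ± 0.071, the protease gene ADAMTS1 at 1.39 ± 0.04 and the factor SOX9 at -4.53 ± 0.23, and without C4-2 replicate 1 the number lower was 3. With the library totals 6 were higher and 1 lower. The invasion counts stand against the same shares of all genes as those of the fusion genes.

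Epithelial and secretory genes tied to SPDEF, EHF and ELF3 split evenly: 9 of 20 tested were higher and 9 lower (median 0.11), or 13 and 2 with the library totals. The keratin genes KRT8 (1.70 ± 0.055, SE) and KRT18 (1.11 ± 0.039) were higher. Among those lower, named after their values were seen, were the secretory genes AGR2 (-0.78), TFF1 (-1.21) and TFF3 (-1.13), which with the library totals stood at 0.23, -0.21 and -0.13 and were not called. For each of these lists the share called in either direction can be read against the 80.0% of all genes, or 83.6% with the library totals. By direction, 40.2% of all genes were higher and 39.7% lower, or 73.1% and 10.5% with the library totals.

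The genes nearest to SPDEF over the 4 libraries, by Euclidean distance of log2 CPM, were POLRMT at 0.084, MCF2L at 0.10 and NR1H2 at 0.11, with log2 fold changes of 0.85, 0.81 and 0.98. Nearest to ETV1 were CYGB at 0.084, ADH1B at 0.54 and TMPRSS6 at 0.55, each with 0 and 0.0283 CPM under the LNCaP label and at most 0.390 CPM under the C4-2 label. Like ETV1, these genes passed the filter on low counts through the C4-2 libraries alone, so their direction was fixed once tested. Over only 4 libraries, the likeness describes level and direction for SPDEF and, with so few tags, level alone for ETV1.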

How the data were processed

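For 41351 RefSeq transcript rows in each of 4 libraries, the deposited tables hold forward and reverse tag counts with matching RPKM values, per the file headers. The submitters' processing notes name TopHat2 2.0.6, Bowtie and the build hg19 (GRCh37). The tag counter is not given in the sources used here. The library kit is not described as strand-specific, yet 1.18% to 1.80% of tags were opposite to the transcript, so the sense column was used.

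Accessions were named through a RefSeq table (38974 of 40304). Tags of rows without a symbol, 2.06% to 2.15% of sense tags, stayed out. For each gene the row with the highest mean share of tags was kept. Exon length and library totals were recovered from count and deposited RPKM. Counts were tested with edgeR 4.0.16 (R 4.3.3) after its low-count filter (minimum count 10) and TMM, with cell line as the only term, and tested on simulated data. DESeq2 1.42.0 was an alternative. SEs were derived from the fold change and the F statistic. All deposited coordinates fit the GRCh37 chromosomes, and promoters were read from that genome, counted from 1. A protein table was not used here.

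The members and gene lists were chosen with earlier results of these data known. Named were all members, every called ETS gene, up to 3 genes per list by smallest adjusted p, nearest neighbours, TMPRSS2, SLC45A3, MIPOL1, FOXA1 and genes of like pattern. Replicate counts differed by more than sampling noise (chi-square per degree of freedom 24.4 for LNCaP and 12.2 for C4-2), and the biological coefficient of variation was 6.43%. Some marker and neighbouring genes and a promoter sequence are not reported here.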

Additional observations from a re-analysis of the deposited data

Results flagged for a closer look

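Tags on the strand opposite to the transcript, which no main comparison uses, were above the limit of 3 tags that a count of 0 allows in every library for 5 members. They amounted to 140% of the sense tags over the 4 libraries for ETV4, 3.46% for ELK4, 0.635% for ELF3, 0.102% for SPDEF and 0.0576% for EHF. For ELK4 they came to 154 and 261 under the LNCaP label and 518 and 364 under the C4-2 label. With both strands summed, ELK4 stood at 0.34, ELF3 at 0.96, SPDEF at 0.92 and EHF at 0.09.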

How the results depend on the processing

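Alternatives were RLE size factors, DESeq2, library totals behind RPKM, no filter and a stricter filter (100 tags in each library of a line), the sum of transcripts, the longest transcript, both strands, each library left out, and the replicate number as a block. Of the members, ELK4, SPDEF and ELF3 were called higher in all 14 settings run, while ETV1, ERG and ETV4, which entered the test through the line where they are higher, say nothing about stability. With library totals 11626 genes were higher and 1664 lower (87.5% of calls higher, against 50.3%), and 1 member, 3 other ETS genes, 1 upstream regulator, 1 invasion gene and 2 secretory genes were lower, with 12 other ETS genes higher. That scaling turned ETV5 to 0.62, ETS2 to 0.65, GABPA to 0.48, ETV6 to 0.56, the markers VWF to 0.71, LYZ to 0.04 and SYP to 0.76, and the neighbouring genes SLC60A1 to 0.12, PACSIN1 to 0.68, APIP (beside EHF) to 0.82 and KCNJ5 (beside FLI1) to 0.03. The stricter filter tests fewer genes, and of the members only ELK4, SPDEF, ELF3, EHF and ETS2. It left 3 members higher and 1 lower, 4 other ETS genes lower and 3 invasion genes higher, with EHF at -0.05. Of all 13179 genes tested under it, 5485 were higher and 5443 lower. With both strands 5 MAP kinase output genes were lower, where 6569 of all 16719 genes tested were. The cause of these moves was not tested where the setting does not itself remove genes. With a library left out, calls ranged from 5962 to 6574 higher and from 5683 to 6196 lower over all genes, from 5 to 6 higher and 2 lower among members, and from 3 to 5 lower among invasion genes. Same-numbered libraries did not deviate together (correlation -0.032 over all genes tested, -0.186 for genes at or above a log2 CPM of 2), and the replicate block gave 6259 higher and 6141 lower, with 5 members higher and 2 lower, and 4 invasion genes lower. Crossing the replicate numbers, chosen after seeing the data, gave 6534 and 6323. Depth limits FLI1, ERG, ETV1 and ETV4, which rest on at most 75 tags in either line.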
